A study of Mus musculus with 132 samples.

Results

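Among the genes that mouse embryos transcribe in a burst at the 2-cell stage, 8 were followed here: Zscan4c, Zscan4d, Zscan4f, Zfp352, Tcstv1, Tcstv3, Tdpoz3 and Tdpoz4. They were chosen by name from the 32245 genes of a single-cell count table. All 8 had a row in it. The question was how much of this RNA was left once embryos had 8 or 32 cells, and whether a microRNA mimic went with a different amount. The answer rested almost wholly on Tdpoz4. It had counts in 43 of 54 cells at the 8-cell stage, made up 91.7% of the members' counts there, and had no count in any of 78 cells at the 32-cell stage. Zscan4c, Zscan4d and Tcstv1 had no count in any of the 132 cells, and Zscan4f had 1 count in 1 cell.

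Embryos came from C57BL/6 x DBA F1 females mated with F1 males of the same cross, and no label names a genetic change. Culture began at the 2-cell stage in medium that held either a scrambled negative control mimic or a mimic of the microRNA miR-381-3p, at matched concentrations. At embryonic day 2.5 (8-cell stage) 30 control and 24 mimic cells were picked, and at embryonic day 3.5 (32-cell stage) 39 control and 39 mimic cells. Their RNA was read with Smart-seq2, which sequences polyadenylated transcripts along their length. The dose was 10 µM for embryos taken at the 8-cell stage and 5 µM for those taken at the 32-cell stage, while the labels of single cells carry no dose. Each group pooled 3 to 5 embryos, and no label ties a cell to its embryo. Each group therefore counted as 1 sample, no test between groups was possible, and all intervals around levels and ratios cover counting error only. Intervals around shares of cells treat the cells as independent draws and leave out the spread between embryos.

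Most of these genes are silent before and soon after the late 2-cell stage. They form part of the programme that the homeodomain factor Dux can switch on, and which also appears for short times in rare mouse embryonic stem cells. Zscan4 proteins carry a SCAN domain and zinc fingers and are known for telomere elongation. Zfp352 is a zinc finger gene of the early embryo. The Tcstv genes encode small proteins that have also been tied to telomere length in embryonic stem cells. Tdpoz genes lie in a cluster on chromosome 3 and encode proteins with a TRAF-type domain and a POZ domain, a fold that often serves to recruit proteins to a ubiquitin ligase.

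Several of the members are near copies of each other, which sets how a read can be given to 1 of them. In the GENCODE M21 annotation of mm10, Zscan4c (chr7:11005745-11010547, plus strand), Zscan4d (chr7:11161374-11166159, minus strand) and Zscan4f (chr7:11397915-11402318, plus strand) each had 4 exons. The coding sequences of Zscan4c and Zscan4f were 99.6% identical, with 6 mismatches in 1521 bases, and those of Zscan4c and Zscan4d 97.7%. Of all 50-base windows of the transcript, 85.5% in Zscan4c, 49.6% in Zscan4d and 95.3% in Zscan4f also occurred in another annotated gene. Zfp352 (chr4:90218820-90225702, plus strand, 2 exons) stood apart with 7.10%. Tcstv1 (chr13:119893388-119894785, minus strand, 1 exon) and Tcstv3 (chr13:120316878-120318178, plus strand, 2 exons) were 94.7% identical in coding sequence, and shared 16.8% and 31.4% of their windows. Tdpoz4 (chr3:93796398-93797510, plus strand) and Tdpoz3 (chr3:93826020-93827117, plus strand) are single-exon models with no annotated UTR. Their coding sequences were 79.2% identical, and Tdpoz3 was closer to Tdpoz1, at 88.4%. Tdpoz4 shared 41.2% of its 50-base windows with other genes and Tdpoz3 66.2%. With 75-base windows these shares were 19.9% and 54.5%. The length of the reads is not given in the sources used here, so counts of the paralogs are uncertain where the authors' counting could split them.

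The start of the coding sequence shows how the Tdpoz copies differ, which is why 4 are printed. Each is the first 60 coding bases on mm10, and capitals mark bases that differ from Tdpoz4 (13 in Tdpoz3, 17 in Tdpoz1 and 15 in Tdpoz2). The same 60 bases were identical in Zscan4c, Zscan4d and Zscan4f.
Tdpoz4: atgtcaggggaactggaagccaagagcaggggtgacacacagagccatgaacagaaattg
Tdpoz3: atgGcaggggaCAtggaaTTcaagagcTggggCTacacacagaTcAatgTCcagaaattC
Tdpoz1: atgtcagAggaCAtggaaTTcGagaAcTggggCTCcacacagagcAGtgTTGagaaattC
Tdpoz2: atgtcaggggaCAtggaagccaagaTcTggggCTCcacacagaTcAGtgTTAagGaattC

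The mimic copies mmu-miR-381-3p (RefSeq, GRCm38.p6, chr12:109726870-109726891, plus strand), shown here because its seed (bases 2 to 8, in capitals) sets the sites that were searched.
mmu-miR-381-3p: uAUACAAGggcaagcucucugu
No 8-base, 7-base or 6-base match to this seed was found in the annotated 3′ UTR of Zscan4c, Zscan4d, Zscan4f, Zfp352, Tcstv1 or Tcstv3. No 7-base match lay anywhere in the annotated transcript of any of the 8 genes. Tdpoz3 and Tdpoz4 have no annotated 3′ UTR, so none could be read for the member that carried most counts.

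RefSeq's promoter table (GRCm38.p6) held 5 of the 8 members, and the 250 bases before the start of 3 of them are printed to set Tdpoz4 beside 2 members that were nearly silent. Capitals mark matches, on either strand, to TGATTNAAT (the first letters of the Dux consensus), GGATTA (the core bound by Obox-type homeodomain factors) and TATAAA. These occurred in 0.658%, 6.25% and 12.4% of 32851 promoter windows of the same length.
Zscan4c, chr7:11005495-11005744, plus strand: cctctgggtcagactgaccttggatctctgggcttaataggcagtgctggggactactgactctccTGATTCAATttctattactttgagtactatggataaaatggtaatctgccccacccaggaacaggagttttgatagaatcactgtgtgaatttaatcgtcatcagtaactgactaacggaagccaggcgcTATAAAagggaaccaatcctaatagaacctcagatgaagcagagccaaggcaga
Zfp352, chr4:90218570-90218819, plus strand: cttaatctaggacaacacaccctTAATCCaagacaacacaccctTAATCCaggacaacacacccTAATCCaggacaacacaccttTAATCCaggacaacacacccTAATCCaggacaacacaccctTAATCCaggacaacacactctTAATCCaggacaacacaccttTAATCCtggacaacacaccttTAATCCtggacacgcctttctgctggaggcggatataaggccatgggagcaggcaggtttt
Tdpoz4, chr3:93796148-93796397, plus strand: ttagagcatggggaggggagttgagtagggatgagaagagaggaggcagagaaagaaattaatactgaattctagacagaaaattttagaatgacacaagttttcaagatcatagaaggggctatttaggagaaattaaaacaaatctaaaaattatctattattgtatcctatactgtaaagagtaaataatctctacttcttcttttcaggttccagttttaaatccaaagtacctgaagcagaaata
TGATTNAAT had 1 match in Zscan4c and 1 in Zscan4f and none in Zscan4d. GGATTA had 9 matches in Zfp352, within a short repeat. TATAAA had 1 match in each of the 3 Zscan4 windows. None of the 3 motifs matched in the Tdpoz4 window, which lies before a coding start and need not hold the true start of the transcript.

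The cells held 544866 to 3461022 counts each (median 1260663), from 3243 to 8983 genes. Levels are given as counts per 1000000 (CPM) of the pooled counts of a group, without mitochondrial genes. A gene with no count in a group is given a limit, the CPM that 3 counts would have made, which was 0.0817 CPM in 8-cell control, 0.0971 in 8-cell mimic, 0.0527 in 32-cell control and 0.0563 in 32-cell mimic cells. Stage and cell type markers were checked next. Counts for all 9 markers of the inner cell mass (ICM) and all 9 of the trophectoderm (TE) were found in every group, and the summed TE markers were at 363 and 485 CPM at the 8-cell stage against 5939 and 5759 at the 32-cell stage. Of 7 markers of cumulus and granulosa cells, which surround the egg, Ptx3, Inhba and Cyp11a1 had no count in any group and Amhr2 was the only one at 5 CPM or more. Their sum was 105.6 CPM in 8-cell control (0 to 339 per cell) and 46.5 in 8-cell mimic cells (0 to 154.7). Nearly all of this was Amhr2, which alone was at 105.6 and 46.46 CPM. The sum was 5.78 and 9.71 CPM in 32-cell control and mimic cells. Its part in the values below was not tested.

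The cells also differed in the sex-linked transcripts. All 39 32-cell control cells had more Y-linked than Xist counts, and all 39 32-cell mimic cells had more Xist, so sex and treatment cannot be told apart at that stage. At the 8-cell stage 7 control and 8 mimic cells had more Y-linked counts, 23 control and 14 mimic cells had Xist at or above them, and 2 mimic cells had neither. In the titles a letter follows each cell's number, a for every 8-cell and b for every 32-cell cell, so a batch that the letters may mark cannot be told apart from the stage. The numbers do not split wholly by treatment. At the 8-cell stage control cells have numbers 1 to 30 and mimic cells 63 to 86, and 2 more control cells follow at 87 and 88. At the 32-cell stage 24 control and 18 mimic cells have number series of their own, and in 1 further series 15 control cells stand between 12 and 9 mimic cells. What a number series stands for is not given in the sources used here.

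The Zscan4 genes gave almost no counts. Zscan4c and Zscan4d were at 0 in all 4 groups, which over the 177783567 counts of all cells allows at most 0.0169 CPM for each. The only count of a Zscan4 member was 1 Zscan4f count in an 8-cell control cell (1 of 30, 3.33%, exact binomial 95% interval 0.0844 to 17.2). Zscan4b and Zscan4e, the other protein-coding copies in the table, were also at 0. Of the 3 pseudogene rows, Zscan4-ps1 alone had counts, 98 of them, all in a different 8-cell control cell, where they came to 54.5 CPM. Since Zscan4-ps1 shares 50-base windows with each of the 3 members, reads from it and from them cannot be told apart there. Counting every Zscan4 row gave 2.69 CPM in 8-cell control cells and 0 in the other 3 groups.

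Zfp352 was present in 3 cells of the whole series. At the 8-cell stage 2 of 30 control cells held 36 and 9 counts (16.1 and 6.55 CPM in those cells), and no mimic cell of 24 held any. Pooled, this was 1.22 CPM (exact Poisson 95% interval 0.894 to 1.64) in control against a limit of 0.0971 in mimic, at least 12.6-fold lower. Of 39 control cells at the 32-cell stage, 1 held all 81 counts, 57.9 CPM in that cell and 1.42 CPM pooled (1.13 to 1.77), and no mimic cell held any. It was the only count of any member at the 32-cell stage. Each of these differences hung on 1 or 2 cells: without the 32-cell cell, Zfp352 was at 0 in both groups of that stage. The share of cells was 6.67% (0.818 to 22.1) against 0 of 24, which allows up to 12.5% by 3 cells of the total and 14.25% by the exact interval, at the 8-cell stage, and 2.56% (0.0649 to 13.5) against 0 of 39, which allows up to 7.69% and 9.03%, at the 32-cell stage. These intervals take cells as independent, although cells of a group share embryos, so nothing is read from them about the treatment.

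Tcstv1 had no count in any cell. Tcstv3 had 11 counts in 1 8-cell control cell (21.1 CPM in that cell) and 23 in 1 8-cell mimic cell (23.8 CPM). Pooled, the levels were 0.299 CPM (0.149 to 0.536) and 0.744 CPM (0.472 to 1.12). It was at 0 in all 78 cells of the 32-cell stage, a limit of 0.0272 CPM.

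Tdpoz3 was seen in 7 cells, all at the 8-cell stage. In control 5 of 30 cells held 46, 20, 16, 3 and 2 counts, and in mimic 2 of 24 held 24 and 6. The pooled levels were 2.37 CPM (1.90 to 2.92) and 0.971 CPM (0.655 to 1.39), a ratio of mimic to control of 0.410 (0.261 to 0.627). The ratio hung on single cells. In control 1 cell held 52.9% of its group's counts, and without it the ratio was 0.838, while 1 mimic cell held 80% and without it the ratio was 0.0847. The shares of cells were 16.7% (5.64 to 34.7) in control and 8.33% (1.03 to 27) in mimic. No 32-cell cell had a Tdpoz3 count, so the level there was at least 44.9-fold lower in control and at least 17.2-fold lower in mimic cells. These bounds hung on the same 2 cells. With both left out, the 8-cell level fell to 1.159 CPM for control and to 0.2005 CPM for mimic, which makes both bounds smaller.

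**Figure D1:**
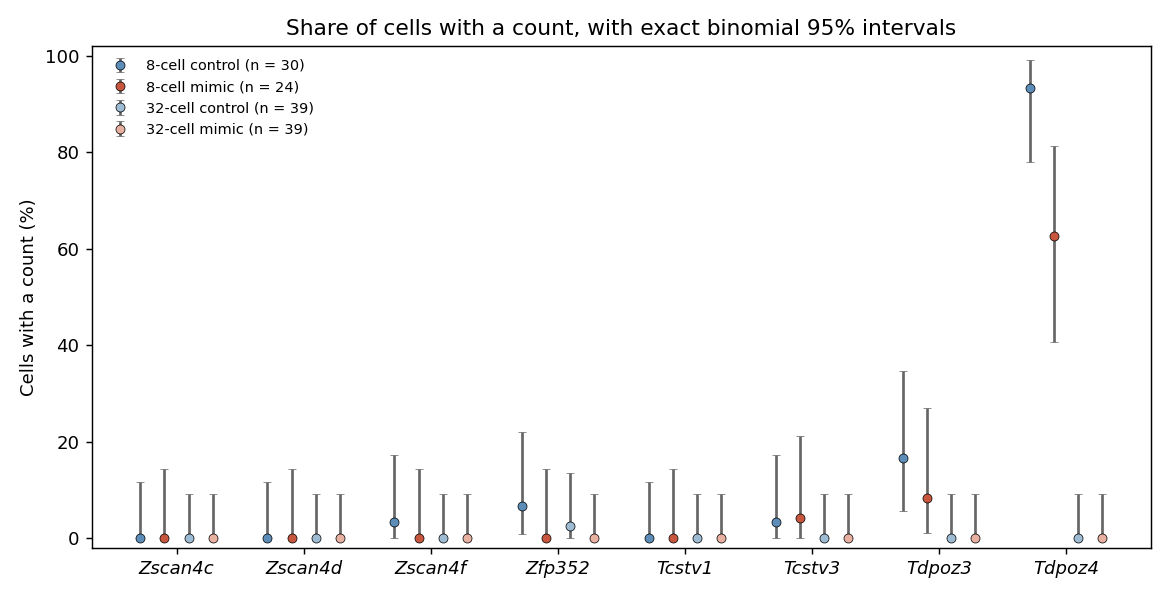
Share of cells with at least 1 count (percent, vertical axis) for each of the 8 genes in the 4 groups, with exact binomial 95% intervals as bars. Tdpoz4 stands apart at the 8-cell stage, in 93.3% of control and 62.5% of mimic cells, and no other member passes 16.7%.

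Tdpoz4 was the member present in most 8-cell cells. In the 30 control cells it ran from 0 to 209 CPM with a median of 34.7, and 28 cells (93.3%, 77.9 to 99.2) held a count. In the 24 mimic cells it ran from 0 to 80.8 CPM with a median of 17.1, and 15 cells (62.5%, 40.6 to 81.2) held a count. The ranges overlapped widely: 3 control cells lay above the highest mimic cell, and 4 control cells, 2 of them at 0, lay below the lowest mimic cell with any count (8.13 CPM). The pooled level was 42.2 CPM (40.1 to 44.3) in control and 20.7 CPM (19.1 to 22.3) in mimic cells, from 1549 and 639 counts. The mean over cells was 43.0 ± 42.03 CPM (SD, n = 30 cells) in control and 21.3 ± 22.5 CPM (SD, n = 24 cells) in mimic, a difference smaller than the spread among control cells.

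The ratio of mimic to control was 0.490 (0.446 to 0.538, counting error only), a change of -0.99 in log2(CPM + 1), so close to the limit of 1 log2 unit used for calls that the settings decide its side. Of 13 alternatives, 5 put it past the limit, such as a pseudocount of 0.1 (-1.02) and the mean over cells (-1.67). The other 8 left it within the limit, such as a pseudocount of 5 (-0.88) and leaving out the highest cell of each group (-0.86). For scale, 10.8% of the 9693 genes at 5 CPM or more in either 8-cell group were lower in mimic by more than that limit, 11.0% were higher, and the median change over them was 0.02. Tdpoz4 was the 1 member that reached 5 CPM, and 0 of that 1 were called. The sum of all 8 members, 46.1 CPM (43.9 to 48.3) in control and 22.4 CPM (20.8 to 24.1) in mimic, changed by -1.01, just past the limit. That call did not hold with mitochondrial genes kept in the total (-0.996) or with cells thinned to 500000 counts (-0.99). The call also failed with a pseudocount of 5 (-0.90) and without the highest cell of each group (-0.89). Nor did it hold without cells under 5000 genes (-0.87) or in cells with Xist counts only (-0.60). The direction itself turned in cells with more Y-linked than Xist counts (0.048) and without control numbers 1 to 30 (0.098).

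The lower pooled level in mimic cells went with fewer cells that held Tdpoz4. Among cells with a count the median was 35.9 CPM in control and 34.1 CPM in mimic, and the mean was 46.1 ± 41.8 CPM (SD, n = 28 cells) and 34.1 ± 19.1 CPM (SD, n = 15 cells). Mimic cells without Tdpoz4 held a median of 1272643 counts without mitochondrial genes and 6351 genes, and mimic cells with it 1188330 counts and 7130 genes. The 3 cells in the series with under 5000 genes were all 8-cell mimic cells and held no Tdpoz4. Without them 15 of 21 mimic cells (71.4%) held Tdpoz4, at 23.8 CPM pooled. When every cell was thinned to 500000 counts, 26 of 30 control and 15 of 24 mimic cells held a count. The part of depth and of gene number in the difference was not tested.

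**Figure D2:**
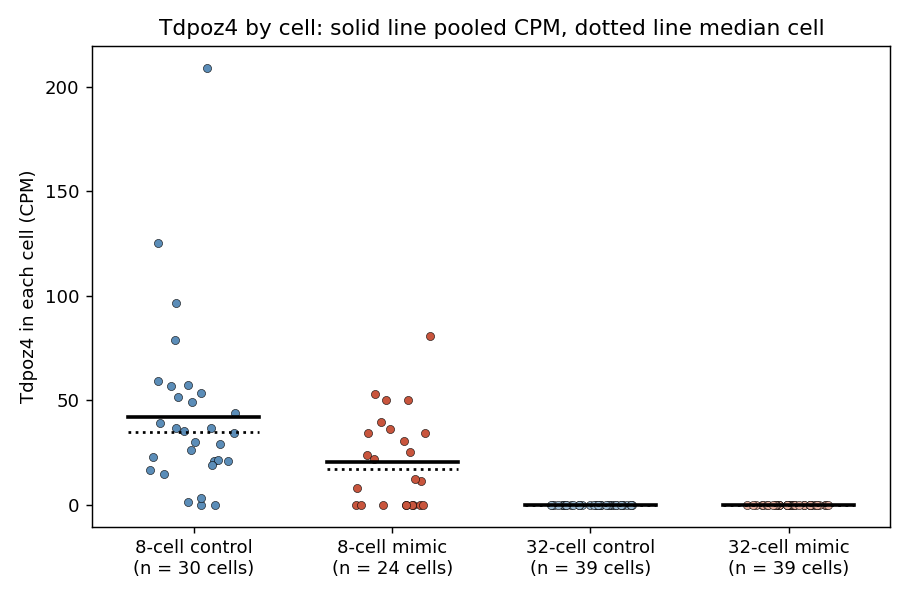
Tdpoz4 in each cell (CPM, vertical axis) in the 4 groups, 1 point per cell, with a solid line at the pooled CPM and a dotted line at the median cell. Control cells at the 8-cell stage reach 209 CPM and mimic cells 80.8 CPM, while all 78 cells at the 32-cell stage lie at 0.

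The size of the difference varied with the sex-linked transcripts. Where Xist was at or above the Y-linked counts, Tdpoz4 was at 52.6 CPM (49.9 to 55.5) in 23 control cells and 25.9 CPM (23.7 to 28.3) in 14 mimic cells, and 22 and 10 of them held a count. Where Y-linked counts were higher, it was at 17.3 CPM (14.9 to 19.9) in 7 control cells and 15.6 CPM (13.0 to 18.5) in 8 mimic cells, and 6 and 5 of them held a count. In these last groups the counting intervals overlapped. The 2 mimic cells with neither transcript held no Tdpoz4. Within the number series 63 to 88, the only one with both treatments at this stage, Tdpoz4 was at 20.9 CPM (15.9 to 26.9) in 2 control cells and 20.7 CPM in the 24 mimic cells, a log2 change of -0.01. The difference thus did not hold within that series, where 2 control cells are too few to give a spread. The other 28 control cells, numbers 1 to 30, were at 44.0 CPM (41.7 to 46.2), and treatment and number series cannot be told apart for them. The cell with most Tdpoz4 gave 361 counts, 23.3% of the control total, and without it the control level was 33.9 CPM.

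**Figure D3:**
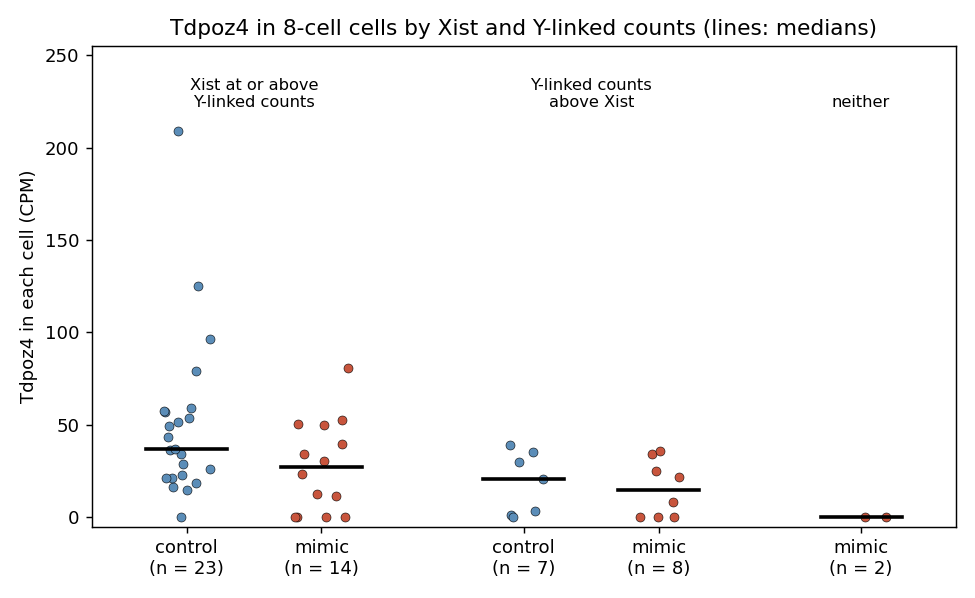
Tdpoz4 in each 8-cell cell (CPM, vertical axis), split by whether Xist or Y-linked counts were higher, with a line at the median of each set of cells. The medians are 36.8 CPM (control) and 27.2 CPM (mimic) for cells with Xist at or above the Y-linked counts, and 20.9 and 14.9 CPM where Y-linked counts were higher.

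Members rarely shared a cell. In 8-cell control 24 of 30 cells held 1 member, 3 held 2, 1 held 3, 1 held 4 and 1 held none. In 8-cell mimic 14 of 24 held 1, 2 held 2 and 8 held none. The cell with 4 members (Zscan4f, Tcstv3, Tdpoz3 and Tdpoz4) was also the shallowest of the series, with 544866 counts. Of the 7 cells with Tdpoz3, 5 also held Tdpoz4, while 43 of all 54 cells held Tdpoz4. On a log2(CPM + 1) scale, the Pearson correlation of Tdpoz4 over 54 cells was -0.04 with Tdpoz3, 0.10 with Tdpoz1 and -0.11 with Tdpoz2. These cells share treatment groups and depth, and such values in sparse counts are a description only.

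**Figure D4:**
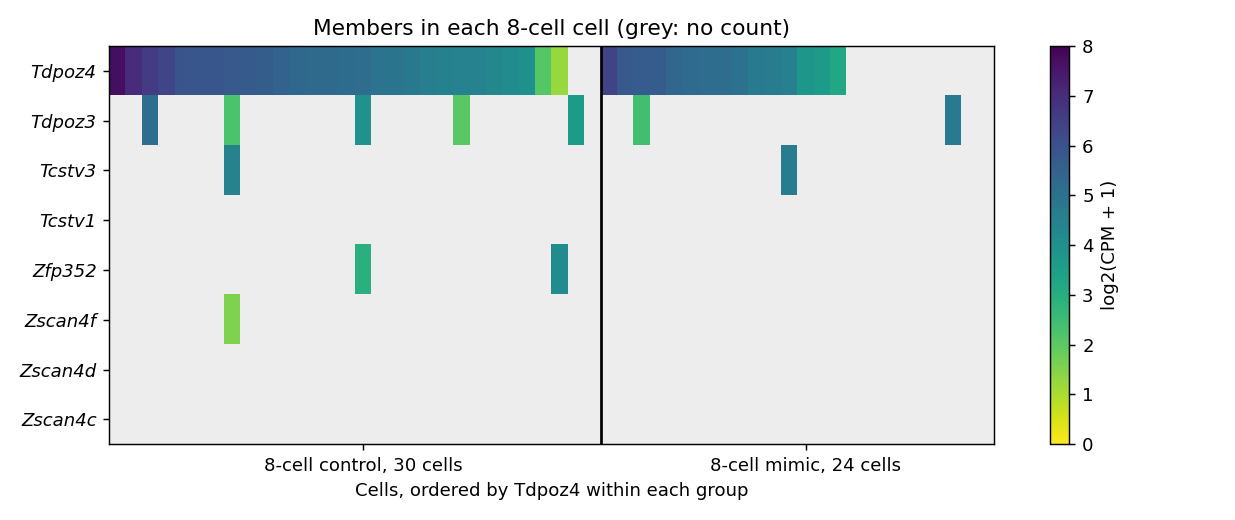
The 8 genes (rows) in each of the 54 cells of the 8-cell stage (columns, ordered by Tdpoz4 within each group), coloured by log2(CPM + 1), with grey for no count. Tdpoz4 fills 28 of 30 control and 15 of 24 mimic columns, and the other genes appear in 9 columns in all.

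The genes whose levels went most with the summed members, and not with Tdpoz4 alone, were sought over the same 54 cells among 9607 genes. The 10 with the highest Pearson correlation were Cyp2s1 (0.59), Aebp2 (0.58), Sar1b (0.54), Thoc2 (0.52), Ltv1 (0.52), Dsn1 (0.51), Sapcd2 (0.51), Ssr2 (0.51), Reep1 (0.49) and Ndufa8 (0.49). Only genes with a count in at least 10 of the cells were ranked, and the members themselves were left out. Of the other listed 2-cell genes, 10 had that many. Within the groups, Aebp2 had 0.55 in control and 0.46 in mimic cells, and Thoc2 had 0.55 and 0.53. The other 8 had at most 0.20 in control cells. Tdpoz4 itself went with the number of genes in a cell at -0.32 in control and 0.51 in mimic cells, the latter falling to 0.26 without the 3 cells under 5000 genes.

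At the 32-cell stage Tdpoz4 had no count in either group, from 56894033 counts in control and 53243229 in mimic cells. Its level was therefore at least 800-fold lower than at the 8-cell stage in control and at least 367-fold lower in mimic cells, set against 3 counts over the pooled group. In control cells 22.5% of 10348 genes were lower at the 32-cell stage by more than 1 log2 unit, and 1 of the 1 member tested, Tdpoz4, was among them. It reached 5 CPM at the 8-cell stage alone, here and in mimic cells, so the filter fixed the direction of the call and nothing is read from it. In mimic cells the share was 20.2% of 10518 genes, and the 1 member tested was again Tdpoz4. Of the genes that like Tdpoz4 reached 5 CPM at the 8-cell stage alone, 21.33% of 1116 in control and 18.01% of 977 in mimic also had no count at the 32-cell stage. The sum of the members was 32.4-fold lower in control, where the 1 cell with Zfp352 made up the rest, and at least 397-fold lower in mimic cells. The stages differed in mimic dose too, which in mimic cells cannot be told apart from stage.

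Between treatments at the 32-cell stage no member could be compared. None reached 5 CPM, so 0 members were tested, where 7.38% of 10050 genes were lower in mimic cells by more than 1 log2 unit. The summed members were at 1.42 CPM in control and below 0.0563 CPM in mimic cells, all from the 1 cell with Zfp352. Within the number series that held both treatments, this was 3.54 CPM in 15 control cells against a limit of 0.0909 CPM in 21 mimic cells.

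That cell fell among the ICM-like cells. When the cells were clustered without the members and the listed genes, the 8-cell stage made 1 cluster of 54 cells and the 32-cell stage made 2. In 1 of the latter, with 37 cells, 8 of 9 ICM markers were higher and no TE marker was (ICM-like), and in the other, with 41 cells, 9 of 9 TE markers and 1 ICM marker were higher (TE-like). Members had a count in 1 of 25 ICM-like and 0 of 14 TE-like control cells, and in 0 of 12 ICM-like and 0 of 27 TE-like mimic cells. The limits for Tdpoz4 in these classes ran from 0.0786 to 0.199 CPM.

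Other genes of the same burst were read from a list of 27, of which 25 had a row. Zscan4a was not analysed here, and Dux was read under the name Duxf3, by which the table lists that gene. The list showed that silence at the 32-cell stage was not shared by all of them. In control cells 9 listed genes reached 5 CPM in either stage, 8 of which were lower at the 32-cell stage and 0 higher, beside 22.5% lower and 31.1% higher over all genes tested. Of the 8, 6 reached 5 CPM at the 8-cell stage alone, so the filter largely fixed their direction and the count is a description. In mimic cells the counts were 9, 6 and 0, with 2 of the 6 through the 8-cell stage alone, beside 20.2% lower and 31.8% higher over all genes.

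Of the other Tdpoz genes, Tdpoz1 and Tdpoz2 kept some counts at the 32-cell stage. Tdpoz1 was at 33.8 CPM in 18 of 30 8-cell control cells and 8.61 CPM in 10 of 24 mimic cells, and at the 32-cell stage at 0.404 CPM in 3 of 39 control and 5.94 CPM in 5 of 39 mimic cells. In 32-cell mimic cells 49.4% of its counts came from 1 cell, without which it was at 3.14 CPM. Tdpoz2 ran the other way between treatments at the 8-cell stage, with 4.11 CPM (control) and 11.7 CPM (mimic), and was at 1.55 and 3.81 CPM at the 32-cell stage. All of its 32-cell control counts came from 1 cell. At the 8-cell stage 1 mimic cell held 37.3% of its counts, and without that cell the mimic level was 7.66 CPM, within 1 log2 unit of control and of 32-cell mimic cells. Tdpoz5 had no count. Per kilobase of annotated transcript, the 8-cell control level was 37.9 CPM for Tdpoz4, 14.5 for Tdpoz1, 3.59 for Tdpoz2 and 2.16 for Tdpoz3, though the Tdpoz3 and Tdpoz4 models hold no UTR. The opposite signs of Tdpoz1 and Tdpoz2 concern copies whose coding sequences are 83.2% identical, and the split of reads between them is uncertain.

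The Trim43 genes, tripartite-motif genes of the preimplantation embryo, had the highest levels of the list. Trim43a was at 1410 CPM in 8-cell control, 1321 in 8-cell mimic, 371 in 32-cell control and 403 in 32-cell mimic cells. Trim43b went from 1297 and 1486 CPM to 32.5 and 65.4 CPM. Trim43c went from 630.0 and 661 CPM to 4.61 and 5.86 CPM, 137-fold lower in control and 112.9-fold lower in mimic cells. At the 8-cell stage none of the 3 differed between treatments by more than 1 log2 unit, and Trim43c was found in every 8-cell cell. Sp110, a nuclear body protein gene, was at 119 and 138 CPM at the 8-cell stage, and at 3.92 CPM in 32-cell control and 12.3 CPM in 32-cell mimic cells. Usp17lb, a deubiquitinase gene, was at 5.69 and 7.47 CPM at the 8-cell stage and, like Tdpoz4, had no count at the 32-cell stage. It was found in only 3 cells of each 8-cell group, and without the cell that held most of its counts it was at 2.99 and 3.29 CPM, under the 5 CPM filter.

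**Figure D5:**
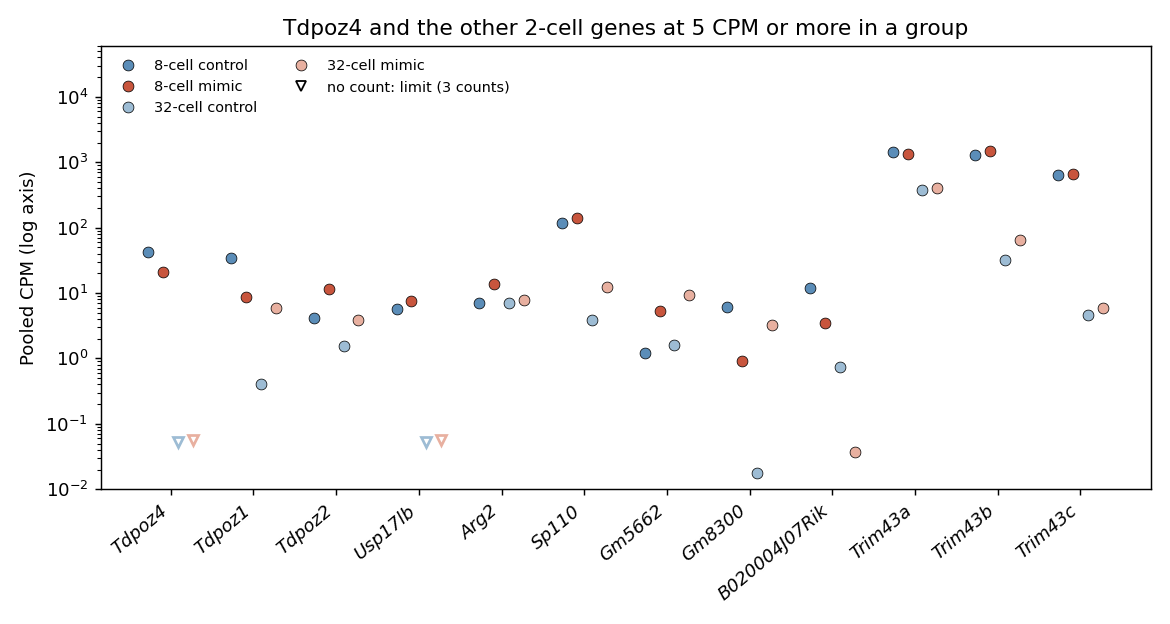
Pooled CPM (log axis) of Tdpoz4 and of the 11 other listed 2-cell genes at 5 CPM or more in at least 1 group, with open triangles at the limit of 3 counts where a group had no count. Tdpoz4 and Usp17lb have no count at the 32-cell stage, and the 3 Trim43 genes stay above 4 CPM in every group.

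Between treatments at the 8-cell stage, 11 of the listed genes reached 5 CPM, 3 of which were lower in mimic cells (Tdpoz1, Gm8300 and B020004J07Rik) and 2 higher (Tdpoz2 and Gm5662), beside 10.8% lower and 11.0% higher over all genes tested. All but Tdpoz1 reached 5 CPM only in the group where they were higher, so the filter fixed their direction. Gm8300 went from 6.15 to 0.906 CPM, B020004J07Rik from 12 to 3.43 CPM and Gm5662 from 1.20 to 5.40 CPM. Without the cell that held most of their counts, Gm8300 in control (3.44 CPM) and Gm5662 in mimic cells (3.30 CPM) were under 5 CPM, with log2 changes of -1.22 and 0.97. In the later cells 7 reached it, 0 lower and 3 higher in mimic cells (Tdpoz1, Sp110 and Gm5662). Their log2 changes were 2.30, 1.43 and 1.98, against 11.5% of all genes tested that were higher by more than 1. All 3 reached 5 CPM in mimic cells alone, so the filter fixed their direction. A lone cell held 47.7% of the Gm5662 counts in 32-cell mimic cells, and without it Gm5662 was at 4.97 CPM. Without their top cell, Gm5662 and Tdpoz1 were thus under the 5 CPM filter, though their log2 changes were still 1.19 and 1.56, and Sp110 alone kept its call, at 10.2 CPM and 1.19. Treatment and sex cannot be told apart for them.

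Genes known to switch this programme on or off were read from lists of 3 and 12. The activators Dppa2, Dppa4 and Nelfa were at 1070, 519 and 93.8 CPM in 8-cell control and 850.1, 364 and 135 CPM in 8-cell mimic cells, and none passed 1 log2 unit. Dppa4 alone passed it between stages, at 238 CPM in the later cells and 2.18-fold lower than at the 8-cell stage in control cells. Duxf3, the row of the Dux gene, had 1 count in all 132 cells. Among 12 genes that hold the programme down in mouse embryonic stem cells, all 12 were tested at the 8-cell stage. Chaf1b, a subunit of the chromatin assembly factor CAF-1, was lower in mimic cells (127.6 to 48.9 CPM), as was the zinc finger gene Zmym2 (84.9 to 37.4 CPM). Setdb1, a histone H3 lysine methyltransferase gene, was higher (43.6 to 113.7 CPM). These 2 lower and 1 higher of 12 stand beside 10.8% and 11.0% of all genes. At the 32-cell stage Setdb1 was lower in mimic than in control cells (83.8 to 40.2 CPM), and none was higher, 1 and 0 of 12 beside 7.38% and 11.5% of all genes. Without the control cell that held most of its counts, that change was -0.92, within the limit. From the 8-cell to the 32-cell stage 5 of the 12 were lower in control (Trim28, Chaf1b, Rif1, Smchd1 and Lin28a) and 5 in mimic cells (Trim28, Setdb1, Ehmt2, Rif1 and Lin28a), and none was higher. Over all genes 22.5% and 20.2% were lower and 31.1% and 31.8% higher. Chaf1b in control came to -0.91, within the limit, without the cell that held most of its counts.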

How the data were processed

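Single-cell Smart-seq2 libraries of 132 cells in 4 groups were analysed. The deposited table holds expected counts per gene and cell, which the authors made with STAR (2.5.1b) and RSEM (1.3.0) on mm10. All values were whole, as if rounded before deposit. The study's limits (3000 genes, 10% mitochondrial) removed 0 cells, and 13 mitochondrial genes were left out. Cells were picked singly and no doublet caller was run. Counts were pooled by group and scaled to CPM, with exact Poisson and Clopper-Pearson 95% intervals. Without molecular identifiers, reads are not independent molecules. Log2 changes used log2(CPM + 1) and were called past 1 where either group had at least 5 CPM. Clustering used Seurat (5.3.0) in R (4.3.3) with 2000 variable genes, 25 components and a resolution of 0.6. Other steps used Python (3.11.15), pandas (2.3.3) and scipy (1.17.1), and the fold calculation was tested on simulated data. Annotation was GENCODE M21. The 8 genes, the lists and the naming rule were chosen with earlier results of these data known. That rule named all 8, listed genes past the limit, and the 10 genes most correlated with the summed members.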

Additional observations from a re-analysis of the deposited data

How the results depend on the processing

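The log2 change of the summed members from control to mimic at the 8-cell stage (-1.01) was -1.72 as a mean over cells of log2(CPM + 1), -0.60 in cells with Xist counts only and -0.87 without cells under 5000 genes, a setting chosen after seeing the data. It turned to 0.048 in cells with more Y-linked than Xist counts and to 0.10 without control numbers 1 to 30, which left 2 control cells. At the 32-cell stage the same change (-1.28) was -0.15 as a mean over cells, -3.93 and -0.36 with pseudocounts of 0.1 and 5, -2.18 without the control run of 24 cells, and 0 without that of 15 cells or without the highest cell. From the 8-cell to the 32-cell stage the change in control (-4.28) was -4.88 as a mean over cells, -4.92 and -2.99 with pseudocounts of 0.1 and 5, -5.29 without the highest cell of each group, -3.17 without 8-cell numbers 1 to 30, -3.37 and -5.56 without the 32-cell runs of 24 and 15 cells, -3.15 with 8-cell cells of higher Y-linked counts and -4.58 with those of Xist at or above them (also chosen after seeing the data). In mimic (-4.55) it was -3.31 as a mean over cells, -7.81 and -2.45 with those pseudocounts, -4.40 without the highest cells, -5.09 with Xist counts only, -4.77 with Xist at or above Y-linked counts and -4.69 without cells under 5000 genes. Both stage changes stayed below 0 under every alternative run. For Tdpoz4 alone the 8-cell change from control to mimic (-0.99) ran from -1.67 as a mean over cells to -0.01 without control numbers 1 to 30, with -0.14 in cells of higher Y-linked counts, -0.59 with Xist counts only and -0.80 without cells under 5000 genes. The share of cells with a member was 100% in 8-cell control without numbers 1 to 30 and 0% in 32-cell control without the run of 15 cells. Genes lower in mimic by more than 1 log2 unit numbered 1047 at the 8-cell stage, against 2031 with a filter at 1 CPM or none and 400 at 20 CPM. At the 32-cell stage they numbered 742, against 1299, 1299 and 392. Between stages in control the 2333 became 1500 at 20 CPM. The cause of these shifts was not tested. Leaving out the cell that held most counts of a listed gene, and adding the Zscan4 pseudogenes to the sum (-1.09 at the 8-cell stage), were also chosen after seeing the data. Counting Zscan4b and Zscan4e with the members changed nothing, and placing cells by marker score left 1 and 0 ICM-like cells with a member. No paired analysis was possible because no label pairs cells or embryos across groups. The intervals leave out the spread between embryos, and a count of 0 in 1 cell of median depth still allows 2.31 to 2.55 CPM.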
